A study of Mus musculus with 5 samples.

Results

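The 4 mouse Notch receptors (Notch1, Notch2, Notch3 and Notch4) and 4 of their transmembrane ligands (Jag1, Jag2, Dll1 and Dll4) were examined in liver tumours with and without Prox1 overexpression. These 8 genes were taken by name from the 55397 genes of the expression table, and all 8 passed the expression filter. Bulk RNA-seq had been done on liver tumours cut out of female mice of the C57BL/6N strain, in which tumorigenesis was started by hydrodynamic tail vein injection (HDTVI), which delivers plasmids to hepatocytes. Every mouse, Control and Prox1 OE alike, was injected at 8 weeks of age with 4 µg of Sleeping Beauty transposase under the CMV promoter and 10 µg of transposon plasmid. The transposon plasmids expressed Akt and the intracellular domain of the Notch receptor (NICD) from the EF1a promoter, the latter linked to rtTA, the activator through which doxycycline acts. Control mice (2 libraries) additionally received 10 µg of a doxycycline-responsive GFP plasmid, whereas Prox1 OE mice (3 libraries) received the same amount of that plasmid carrying FLAG-tagged mouse Prox1. Doxycycline food (6.25%) was started at day 21, and the labels give Prox1 overexpression from week 3 to week 4. The labels name tumour collection a week later or at a humane endpoint, and do not give which of these held for each tumour. They call the cells transformed hepatocytes, and EF1a is not a hepatocyte-specific promoter. They do not say whether each library came from a separate mouse, so that p-values measure the spread between these libraries.

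Notch signalling passes between touching cells. A Jagged or Delta-like ligand on a sending cell is ubiquitinated and endocytosed, which exposes the bound receptor to ADAM proteases and then to gamma-secretase, and the released intracellular domain enters the nucleus, where it acts with RBPJ and Mastermind-like proteins. In the liver, JAG1 and NOTCH2 are best known for the formation of intrahepatic bile ducts. NOTCH4 and DLL4 are typical of endothelium and NOTCH3 of the mural cells around vessels. NICD is the part of the receptor that acts in the nucleus and needs no ligand, and its plasmid was injected in both groups, although its expression was not measured apart from Notch1.

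Libraries held 48740863 to 56629477 reads, and 1 read was worth 0.822 to 1.18 normalised counts, namely reads divided by a size factor of the library. Prox1 itself read 4153 and 4664 normalised counts in the Control tumours, against 48090, 11113 and 8231 in Prox1 OE tumours 1, 2 and 3. All 3 libraries labelled Prox1 OE were therefore above both Controls, and tumour 1 stood apart within its group (limma log2 fold change 1.90, adjusted p = 0.061, 1.12 with adjusted p = 0.0055 without Prox1 OE tumour 1, and 2.39 with adjusted p = 0.032 without Prox1 OE tumour 3). The labels do not give the species and isoform of the Akt insert. Akt1 read 57782 and 55267 normalised counts in the Controls and 30413, 29720 and 22530 in Prox1 OE. Its limma log2 fold change was -1.05 (adjusted p = 0.0057), and -1.02 without Control tumour 1. Hepatocyte markers and bile duct (cholangiocyte) markers were both abundant in every tumour. Of 17105 genes tested, 5702 passed an adjusted p of 0.05 (33.3%), with 2769 lower (16.2%) and 2933 higher (17.1%) in Prox1 OE. With each library's total count as its size the split became 6856 lower and 1472 higher, and the median over all genes moved from -0.02 to -0.45.

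The regulatory sequence in front of 3 of the genes is given first, namely the most abundant receptors (Notch1 and Notch2) and the ligand that fell (Jag1). Each was taken from the 250 bases before a RefSeq transcription start (GRCm38.p6), without bases that GENCODE vM21 places in an exon of the gene, and is written 5′ to 3′ along the gene. Capitals mark the GC box GGGCGG or its reverse complement, a binding motif of SP-family factors.
Notch1, chr2:26503825-26504072, minus strand: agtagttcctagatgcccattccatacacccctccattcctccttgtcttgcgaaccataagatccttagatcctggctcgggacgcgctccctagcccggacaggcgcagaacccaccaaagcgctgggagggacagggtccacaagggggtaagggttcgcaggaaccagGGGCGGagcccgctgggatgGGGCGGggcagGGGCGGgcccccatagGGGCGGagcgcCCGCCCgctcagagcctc
Notch2, chr3:98013288-98013526, plus strand: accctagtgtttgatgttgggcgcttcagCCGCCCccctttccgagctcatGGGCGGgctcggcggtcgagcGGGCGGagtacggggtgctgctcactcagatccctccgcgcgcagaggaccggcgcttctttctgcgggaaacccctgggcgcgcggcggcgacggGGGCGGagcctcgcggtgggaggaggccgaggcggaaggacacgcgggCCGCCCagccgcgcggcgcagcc
Jag1, chr2:137116645-137116770, minus strand: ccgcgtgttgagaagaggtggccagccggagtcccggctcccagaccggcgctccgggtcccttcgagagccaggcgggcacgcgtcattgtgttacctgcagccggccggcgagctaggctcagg

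RefSeq gave a promoter for all 8 genes, and 9 in total because Dll1 has a pair of starts. The full windows of 250 bases ran from 4 CpG dinucleotides at Notch4 to 54 at Jag2, against a median of 6 over the 32851 promoters of the table. The Notch2 window held 34 CpGs, the Jag1 window 20 and the Notch1 window 16. The GC box was found on either strand in 5 of the 9 windows (Notch1, Notch2, Notch3, Jag2 and Dll4), and in 32.7% of all promoters. The Notch1, Notch2 and Jag2 windows each had 5 matches, 2 of those at Jag2 overlapping each other, and the Jag1 window had none. The letters TGGGAA, the core bound by RBPJ, were in 0 of the 9 windows on either strand, against 21.6% of all promoters. The GC box and RBPJ core were letter matches only, with no binding measured here. The Notch1 start of RefSeq lay 12840 bases inside the 5′ end of the gene model used for counts per length, so that another Notch1 start may exist outside the window shown. The RefSeq starts of Jag2, Jag1, Notch4, Notch2 and 1 of the Dll1 windows lay 280, 123, 26, 10 and 1048 bases inside as well. The whole Jag2 window fell within the gene model.

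All 4 receptors fell in the Prox1 OE tumours, and in each of them every Prox1 OE library was below both Controls. Notch1 had the largest fold change and Notch4 the smallest, with confidence intervals that overlapped. The directions were lower for all 4 under every scaling tried. The background was broad, since 16.2% of all genes tested were called lower and 63.3% had groups that did not overlap, 32.4% with Prox1 OE below Control. The median log2 fold change of the 4 receptors was -0.71. The number called was 1 without Control tumour 1, 1 without Control tumour 2, 2 without Prox1 OE tumour 2 and 3 without Prox1 OE tumour 3.

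Notch1 (ENSMUSG00000026923, chromosome 2, 26457903 to 26516663, minus strand of mm10) encodes the receptor from which NICD is derived. It read 13002 and 11967 normalised counts in the Control tumours and 7027, 5094 and 4524 in Prox1 OE tumours 1 to 3. The highest Prox1 OE tumour thus lay well below the lowest Control. Means were 12485 ± 732 (SD, n = 2) and 5548 ± 1312 (SD, n = 3), a limma change of -1.19 on the log2 scale (SE 0.19, 95% confidence interval -1.64 to -0.75, adjusted p = 0.0046). The call held without each library in turn, with log2 fold changes from -1.38 to -1.06. The labels do not give the species or extent of the NICD insert, and reads of a mouse insert and of the endogenous gene would fall on the same exons. The Notch1 value therefore cannot be told apart into plasmid and endogenous transcript. Whether the Akt plasmid, the other driver, carries Akt1 is not given in the labels either. Notch1 divided by Akt1 gave 0.225 and 0.217 in the Controls and 0.231, 0.171 and 0.201 in Prox1 OE, and these ratios overlapped between groups. Because Akt1 reads can come from its own locus too, the ratio does not measure the plasmids alone.

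Notch2 (ENSMUSG00000027878, chromosome 3, 98013527 to 98150361, plus strand) encodes the receptor that JAG1 engages in bile duct development. Its normalised counts were 7721 and 7600 in Control and 5108, 4801 and 4062 in Prox1 OE. The Controls were nearly equal and all 3 Prox1 OE tumours were lower. Means were 7661 ± 85.6 (SD, n = 2) and 4657 ± 538 (SD, n = 3), a log2 change of -0.72 (SE 0.13, 95% confidence interval -1.03 to -0.42, limma adjusted p = 0.0068). With Control tumour 1 left out, the adjusted p was 0.069 at a log2 fold change of -0.71. Without Control tumour 2 it was 0.050 at -0.74, just over the threshold.

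Notch3 (ENSMUSG00000038146, chromosome 17, 32120820 to 32166852, minus strand) encodes the receptor of mural cells. It was measured at 336 and 307 normalised counts in Control and at 243, 172 and 185 in Prox1 OE. No Prox1 OE tumour reached the lower Control. The means of 321 ± 20.6 (SD, n = 2) and 200.3 ± 37.9 (SD, n = 3) were apart by a log2 change of -0.69 (SE 0.21, 95% confidence interval -1.18 to -0.20, limma adjusted p = 0.039). This call was the least stable of the receptors. The limma adjusted p was 0.25 without Control tumour 1, 0.15 without Control tumour 2, 0.11 without Prox1 OE tumour 2 and 0.091 without Prox1 OE tumour 3, with log2 fold changes of -0.63, -0.76, -0.59 and -0.65.

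Notch4 (ENSMUSG00000015468, chromosome 17, 34564268 to 34588503, plus strand) encodes the endothelial receptor. Its normalised counts were 615 and 732 in Control and 424, 441 and 498 in Prox1 OE. The groups were separate, although the Controls differed from each other by more than Prox1 OE tumours did. Means were 673 ± 82.1 (SD, n = 2) and 454 ± 38.4 (SD, n = 3), a log2 change of -0.56 (SE 0.16, 95% confidence interval -0.93 to -0.20, limma adjusted p = 0.030). The limma adjusted p was 0.11 without Control tumour 1, 0.25 without Control tumour 2 and 0.080 without Prox1 OE tumour 2, at log2 fold changes of -0.69, -0.44 and -0.54.

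**Figure D1:**
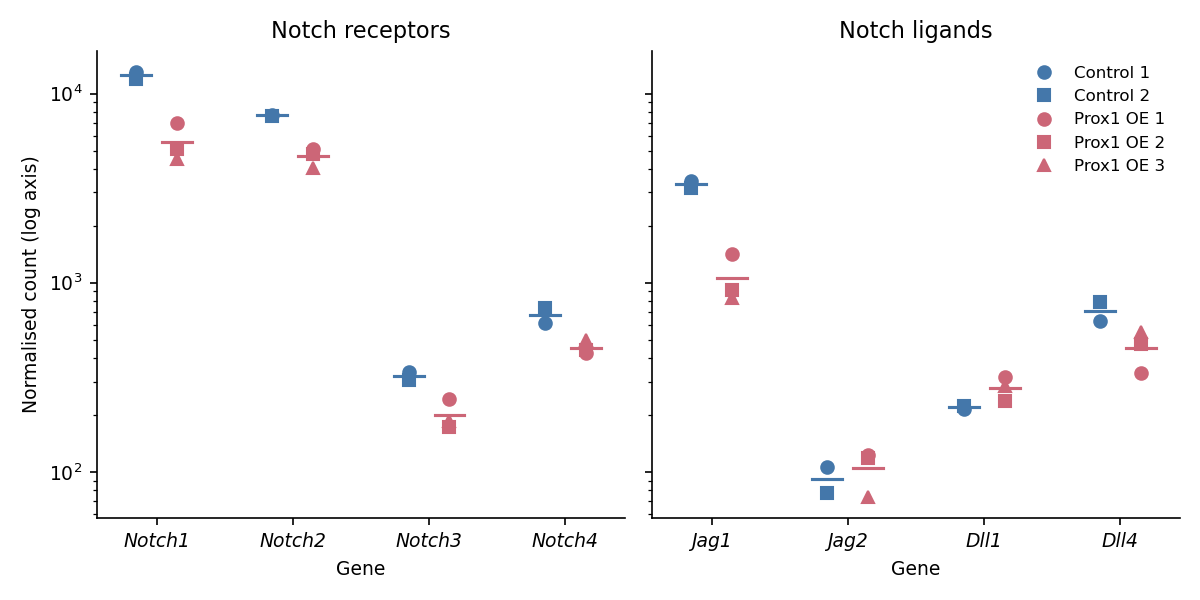
Normalised counts (vertical axis, log scale) of the 4 receptors (left) and 4 ligands (right) in each library, blue for the 2 Controls and red for the 3 Prox1 OE tumours, with a line at each group mean. All red points lie below the blue points for the 4 receptors, Jag1 and Dll4, the groups overlap for Jag2, and the Dll1 points of Prox1 OE lie above Control at this scaling.

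The ligands did not move together. Jag1 fell, with a fold change larger than that of any receptor, whereas Jag2, Dll1 and Dll4 did not pass the test. The median log2 fold change of the 4 ligands was -0.25, against a background of 16.2% of genes called lower.

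Jag1 (ENSMUSG00000027276, chromosome 2, 137081456 to 137116644, minus strand) encodes the ligand JAGGED1 of bile duct development. It read 3450 and 3174 normalised counts in the Controls and 1422, 918 and 833 in Prox1 OE. Every Prox1 OE tumour was thus less than the lower Control by a wide margin, and Prox1 OE tumour 1 was the highest of its group, as it was for Notch1, Notch2 and Notch3. Means were 3312 ± 195 (SD, n = 2) and 1058 ± 318 (SD, n = 3), a log2 change of -1.68 (SE 0.22, 95% confidence interval -2.21 to -1.16, limma adjusted p = 0.0030). Only 2.37% of genes tested had a lower log2 fold change. Leaving out each library gave log2 fold changes of -1.92 to -1.53, and the call held every time.

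Dll4 (ENSMUSG00000027314, chromosome 2, 119325784 to 119335962, plus strand) encodes the ligand of endothelial tip cells. Its normalised counts were 630 and 793 in Control and 333, 472 and 550 in Prox1 OE. The groups were separate but each was spread. With means of 712 ± 115 (SD, n = 2) and 452 ± 110 (SD, n = 3), Dll4 changed by -0.68 in log2 (SE 0.23, 95% confidence interval -1.22 to -0.13) and the limma adjusted p was 0.060, which missed the threshold. Dll4 was called in 4 of 16 alternatives, among them that without Prox1 OE tumour 3 (-0.83, adjusted p = 0.041) and DESeq2 on the recovered reads (-0.66, adjusted p = 0.031). The limma adjusted p was 0.13 and 0.31 without Control tumours 1 and 2, and 0.065 and 0.12 without Prox1 OE tumours 1 and 2, at log2 fold changes of -0.84, -0.51, -0.47 and -0.72.

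Dll1 (ENSMUSG00000014773, chromosome 17, 15367354 to 15376872, minus strand) encodes the Delta-like ligand of many developing tissues. It read 216 and 223 normalised counts in Control and 317, 236 and 284 in Prox1 OE. All 3 Prox1 OE values were above both Controls, the lowest by a small margin. Means were 219.5 ± 4.85 (SD, n = 2) and 279 ± 40.7 (SD, n = 3), and their log2 difference of 0.33 (SE 0.19, 95% confidence interval -0.12 to 0.78, limma adjusted p = 0.22) was -0.10 when the total count was the library size.

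Jag2 (ENSMUSG00000002799, chromosome 12, 112907819 to 112929776, minus strand), the second Jagged ligand, was the scarcest of the 8 genes. Its normalised counts were 106 and 77.1 in Control and 123, 118 and 74.1 in Prox1 OE. The groups overlapped, since Prox1 OE tumour 3 was below both Controls. Means were 91.6 ± 20.4 (SD, n = 2) and 105 ± 26.8 (SD, n = 3), a log2 difference of 0.18 (SE 0.31, 95% confidence interval -0.54 to 0.90, limma adjusted p = 0.69), which was -0.25 with the total count as the library size and -0.049 without Control tumour 2. The interval spans changes in both directions, so that neither a rise nor a fall could be seen at this number of libraries.

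Over the 8 genes, 5 were called lower and 0 higher, with 7 of the 8 not overlapping between groups and a median log2 fold change of -0.69, against -0.02 over all 17105 genes. Of all genes, 33.3% were called and 63.3% did not overlap in either direction, and no test of the 8 genes as a set was made. The number called lower was 2 without Control tumour 1, 2 without Control tumour 2, 3 without Prox1 OE tumour 2 and 5 without either of the other Prox1 OE tumours. Notch1 and Jag1 were called in each of these.

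**Figure D2:**
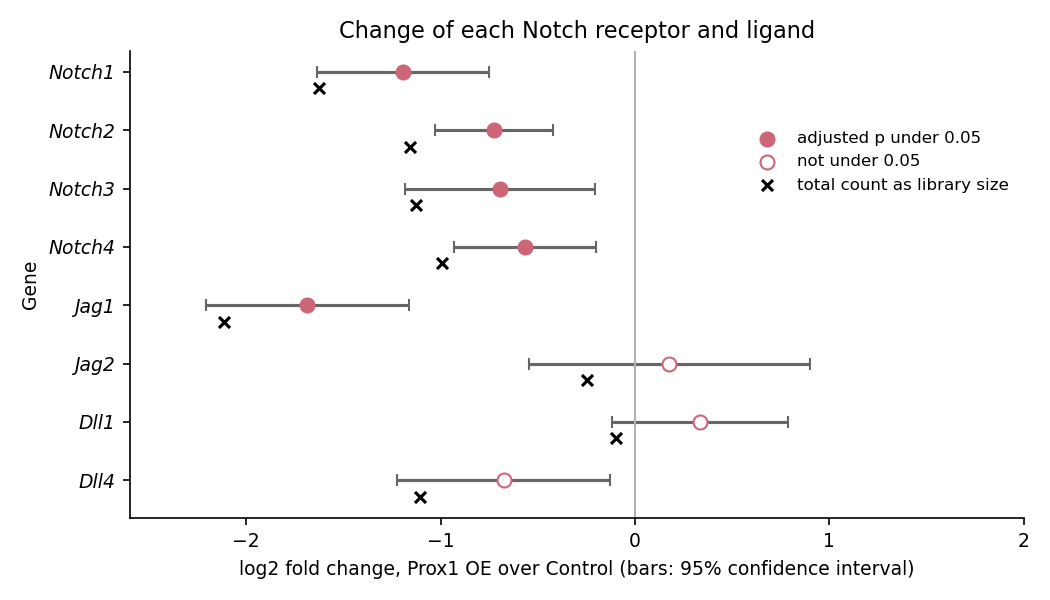
Log2 fold change of each gene, Prox1 OE over Control (horizontal axis), with 95% confidence intervals as bars, filled circles for an adjusted p under 0.05, and crosses for the value with the total count as library size. Jag1 (-1.68) and Notch1 (-1.19) lie farthest left, the intervals of Jag2 and Dll1 cross 0, and the crosses of Jag2 (-0.25) and Dll1 (-0.10) lie left of 0.

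Levels of different genes were compared as normalised counts per kb of merged exons. In Control the order of these levels was Notch1 (877 ± 51.4, SD, n = 2), Notch2 (710 ± 7.94), Jag1 (568 ± 33.4), Dll4 (185 ± 30.0), Notch4 (83.5 ± 10.2), Dll1 (52.0 ± 1.15), Notch3 (39.7 ± 2.55) and Jag2 (13.1 ± 2.93). No neighbours in that order overlapped between libraries. In Prox1 OE, Notch2 (432 ± 49.9 per kb, SD, n = 3) and Notch1 (390 ± 92.2 per kb) overlapped at the top, as did Dll1 (66.1 ± 9.65 per kb) and Notch4 (56.4 ± 4.76 per kb) in the middle. Jag1 at 182 ± 54.6 per kb and Dll4 at 117 ± 28.5 per kb kept their places in the order, and Notch3 (24.8 ± 4.68 per kb) and Jag2 (15.1 ± 3.85 per kb) stayed last. Summed per kb, the receptors came to 1748 and 1674 in Control and to 1050, 879 and 779 in Prox1 OE. The ligands summed to 822 and 815 per kb in Control and to 423, 353 and 364 in Prox1 OE. Both sums were lower in every Prox1 OE tumour. Without Notch1, whose reads may include the plasmid, the receptors summed to 834 and 834 per kb and to 557, 521 and 461. Per kb of the longest transcript, in place of merged exons, Notch1 (585 ± 138, SD, n = 3) had a higher mean than Notch2 (444 ± 51.2) in Prox1 OE. The order of Notch1 and Notch2 there thus depended on the length used.

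The make-up of the ligand pool differed between the groups, as a description with no test. Jag1 made up 66.9% to 72.0% of the ligand level per kb in Control and 39.3% to 57.7% in Prox1 OE. Dll1 made up 6.23% to 6.49% in Control and 15.8% to 18.5% in Prox1 OE, and Jag2 1.36% to 1.85% against 2.93% to 4.80%. These 3 shares did not overlap between groups, whereas that of Dll4 did (19.9% to 25.3% against 20.4% to 39.3%). Among receptors, Notch1 went from 50.2% to 52.3% of the level per kb in Control to 40.7% to 47.0% in Prox1 OE, and Notch2 from 41.0% to 42.1% to 45.1% to 50.6%. The 4 receptors, leaving out Notch1, relative to the 4 ligands gave ratios of 1.01 and 1.02 in Control and 1.31, 1.48 and 1.27 in Prox1 OE. With Notch1 the ratios of these levels per kb were 2.13 and 2.06 in Control and 2.48, 2.49 and 2.14 in Prox1 OE, barely apart. Per kb of the longest transcript they were 2.59 and 2.50 against 2.91, 2.86 and 2.47, which overlapped. On that length, Notch1 made up 59.1% to 61.2% of the receptor level in Control and 49.5% to 56.0% in Prox1 OE.

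**Figure D3:**
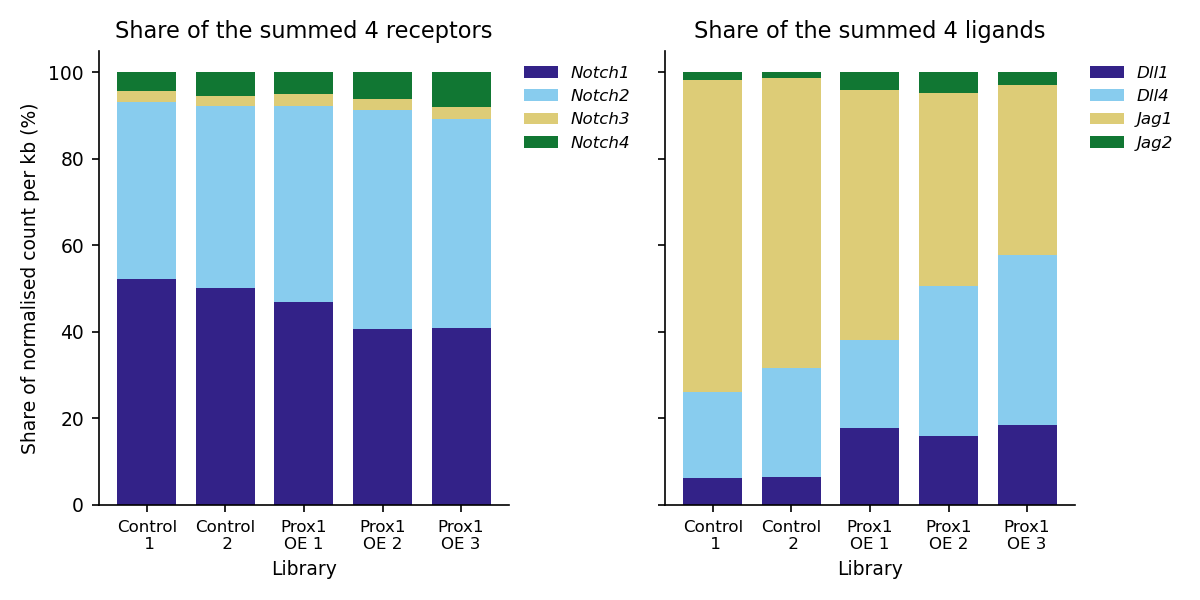
Share of each gene in the summed normalised count per kb (vertical axis, percent) of the 4 receptors (left) and the 4 ligands (right), 1 bar per library. The Jag1 segment is 66.9% to 72.0% of the ligand bar in Control and 39.3% to 57.7% in Prox1 OE, with wider Dll1 and Jag2 segments.

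A ratio of 2 genes within a library does not depend on the scaling, and 8 such ratios were compared by an exact permutation test over samples, which cannot give a two-sided p below 0.1. Jag2 relative to Jag1 was higher in Prox1 OE by 1.86 on the log2 scale and Dll1 relative to Jag1 by 2.02, each with exact permutation p = 0.1 (0.27 adjusted over the 8 ratios) and no overlap between groups. Jag1 relative to Notch2 was lower (log2 difference -0.96, exact permutation p = 0.1, adjusted 0.27), again with no overlap. Notch1 relative to Notch2 gave -0.47 (exact permutation p = 0.2, adjusted 0.4) with no overlap, and Dll4 relative to Jag1 gave 1.01 (exact permutation p = 0.3, adjusted 0.48) with overlapping groups. The other ratios were near 0, with log2 differences of 0.03 for Notch3 over Notch2, 0.16 for Notch4 over Notch2 and -0.11 for Dll4 over Notch4. None of the 8 ratios could pass a threshold of 0.05 in this design.

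Of 43 further genes of the pathway, 41 were tested, of which 15 fell, 3 rose and 23 did not pass, with a median log2 fold change of -0.30. The number called lower was 1 without Control tumour 1, 2 without Control tumour 2, 7 without Prox1 OE tumour 2 and 19 without Prox1 OE tumour 1. Over all genes, those called lower went from 2769 to 620, 947, 1737 and 3765 in the same settings. Genes that lost their call without Control tumour 1 had both large and small changes. There the log2 fold change was -1.53 for Nrarp, -1.17 for Maml3, -0.53 for Aph1b and 0.49 for Rfng. Without Control tumour 1, Control tumour 2 or Prox1 OE tumour 2 the rises numbered 1, that of Psen2. Over all 17105 genes, 16.2% were called lower and 17.1% higher. The nuclear list held 6 of the falls and the target list 3, and all adjusted p-values below are from limma over all genes tested.

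Dlk1, a non-canonical Delta-like protein of fetal liver, fell from 139 and 189 normalised counts in Control to 48.1, 36.6 and 18.5 in Prox1 OE, the steepest change among the pathway genes (log2 fold change -2.30, adjusted p = 0.0073, and 0.056 without Control tumour 2). Dll3 and Dlk2 were too low to be tested. Of the 5 enzymes that attach or extend sugars on the receptors, 0 fell and Rfng, a Fringe glycosyltransferase, rose, against 17.1% of all genes called higher (log2 fold change 0.54, adjusted p = 0.018). Rfng lost its call without Control tumour 1 (0.17), Control tumour 2 (0.092) or Prox1 OE tumour 2 (0.053), and its log2 fold change was 0.11 with the total count as library size. Lfng (0.36, or -0.070 with the total count) and Poglut1 (-0.20) did not pass.

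Among 10 genes of receptor cleavage, 2 fell and 1 rose, shares near those over all genes (16.2% lower and 17.1% higher). Psen2, a catalytic presenilin of gamma-secretase, read 2799 and 3473 normalised counts in Control and 9354, 9764 and 14904 in Prox1 OE. Every Prox1 OE tumour was far above both Controls, with a log2 fold change of 1.83 (adjusted p = 0.0026, and 0.0037 to 0.024 without each library in turn). Adam10, the protease of the ligand-induced cut, fell (log2 fold change -0.63, adjusted p = 0.013, but 0.088 without Control tumour 1 and 0.099 without Control tumour 2). Aph1b, a gamma-secretase subunit, fell by 0.52 on the log2 scale (adjusted p = 0.027), with adjusted p of 0.19 and 0.18 without Control tumours 1 and 2, and 0.070 and 0.055 without Prox1 OE tumours 2 and 3.

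Of the 4 ubiquitin ligases that act on ligands, Neurl1a (log2 fold change -1.14, adjusted p = 0.0056) and Neurl1b (-0.89, adjusted p = 0.011) fell, and the share of all genes called lower was 16.2%. Without Control tumour 1 their adjusted p-values were 0.059 and 0.11. Mib2 was called higher (0.37, adjusted p = 0.043) but was at -0.065 with the total count as library size. Its adjusted p was 0.34 and 0.14 without Control tumours 1 and 2, and 0.10 and 0.071 without Prox1 OE tumours 2 and 3. Mib1, the main ligase of the list in mammals, had a log2 fold change of -0.38 (adjusted p = 0.056). Of 8 genes of receptor trafficking and turnover 1 was called lower, near the 16.2% of all genes, namely the Deltex ligase Dtx1 (log2 fold change -1.16, adjusted p = 0.028, and 0.12 without either Control and 0.054 without Prox1 OE tumour 2), while Itch (-0.40) and Numbl (-0.30) did not pass.

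Of the 7 nuclear effectors, 6 were called lower, against 16.2% of all genes, with a median log2 fold change of -0.76 and Snw1 alone not passing. The number called was 0 without either Control, 3 without Prox1 OE tumour 2 and 4 without Prox1 OE tumour 3. The coactivator Maml3 read 334 and 384 normalised counts in Control and 200.4, 149.9 and 163 in Prox1 OE (log2 fold change -1.07, adjusted p = 0.0080). Maml2 (-0.86, adjusted p = 0.0085) and Ep300, a histone acetyltransferase (-0.86, adjusted p = 0.016), were near each other. Without Control tumour 1 the adjusted p was 0.059 for Maml3, 0.088 for Maml2 and 0.11 for Ep300, and without Control tumour 2 it was 0.080, 0.068 and 0.068.

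Of 6 direct target genes, 3 fell, against 16.2% of all genes, and 3 did not pass, with a median log2 fold change of -1.14. Nrarp, a feedback inhibitor that Notch induces, read 8351 and 10070 normalised counts in Control and 5651, 3378 and 2230 in Prox1 OE (log2 fold change -1.39, adjusted p = 0.020). Heyl (-1.15, adjusted p = 0.017) and Hey2 (-1.32, adjusted p = 0.037), repressors of the HES and HEY family, fell as well. Without Control tumour 1, Control tumour 2 or Prox1 OE tumour 2, the adjusted p was 0.071, 0.098 and 0.072 for Nrarp, 0.086, 0.077 and 0.064 for Heyl, and 0.20, 0.12 and 0.11 for Hey2, which also reached 0.091 without Prox1 OE tumour 3. Hes1 (log2 fold change -0.26), Hey1 (-0.0036) and the scarce Hes5 (-1.13, mean of 40.4 normalised counts in Control) did not pass, and their groups overlapped.

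**Figure D4:**
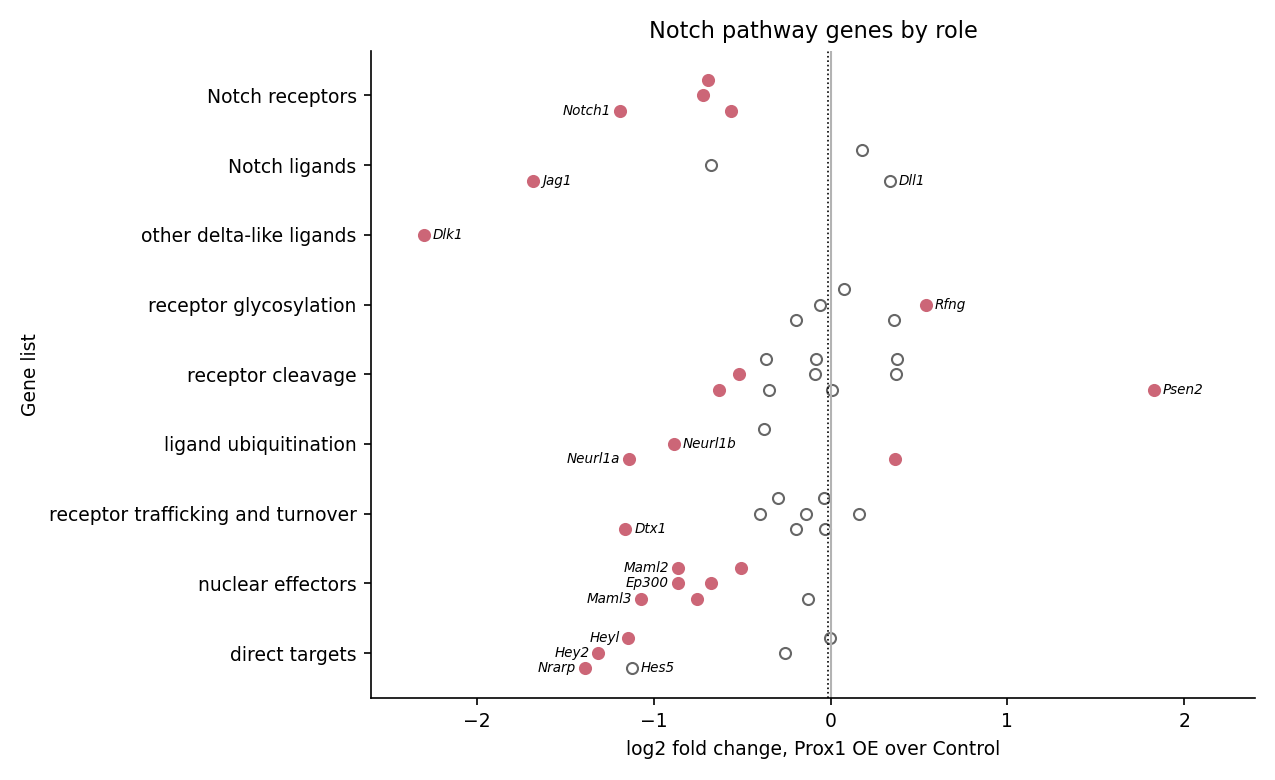
Log2 fold change, Prox1 OE over Control (horizontal axis), of each tested Notch pathway gene, 1 row per role, with filled circles for an adjusted p under 0.05, open circles for the others and a dotted line at the median of all genes (-0.02). The receptors, nuclear effectors (6 of 7) and 3 of the 6 targets lie left of the line as filled points, and Psen2 (1.83) is the farthest right.

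Several cell types of the liver express these genes, and in bulk tumour RNA fewer cells of a type and less RNA per cell cannot be told apart. Cholangiocyte markers, beside which Jag1 and Notch2 are usually found, summed to 758046 to 827243 normalised counts in Control and 523538 to 707471 in Prox1 OE, and 6 of the 7 tested were called lower. Spp1, the marker that was not called (log2 fold change -0.34), held 93.9% to 97.4% of that sum. Without it, a sum taken after seeing the data, the other cholangiocyte markers came to 42494 and 46035 in Control and 14220 to 18646 in Prox1 OE, and the median log2 fold change of the list was -1.21. Hepatocyte markers went the other way, from 663190 and 1095465 to between 2331758 and 3691793, with 8 of 8 higher (2 without Control tumour 1 and 4 without Prox1 OE tumour 2). Mural markers (Rgs5, Cspg4, Acta2, Myh11, Tagln and Kcnj8), the setting of Notch3, summed to 50532 and 56289 in Control and 26583 to 33097 in Prox1 OE. Of these, 5 of 6 were lower, including Rgs5 (log2 fold change -0.77) and Cspg4 (-1.08), with 1 lower without Control tumour 1 and 3 without Control tumour 2. Over all 17105 genes tested, 16.2% were called lower and 17.1% higher. Without Prox1 OE tumour 2, 1737 of 17127 genes were called lower and 2132 higher. The part of bile duct and mural cells in the results for Jag1, Notch2 and Notch3 was not tested.

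Endothelial markers, the setting of Notch4 and Dll4, had no member called lower at the deposited scaling, and 4 lower and 2 higher with the total count as library size. They summed to 10942 and 13639 normalised counts in Control and 12983 to 18912 in Prox1 OE, which overlapped, with 0 lower and 3 higher of 10 (0 lower and 1 to 4 higher without each library). Left out in turn, after seeing the data, 8 of the 10 markers gave sums that still overlapped, and without Cdh5 or without Esam the sums of Prox1 OE were above Control. The 7 endothelial markers that did not pass had log2 fold changes from -0.33 (Cdh5) to 0.44 (Kdr), and Pecam1 was at -0.27. The 3 that rose were Clec4g (2.61) and Stab2 (1.04), both of sinusoidal endothelium, and Tek (0.56). Stellate cell markers were at 4876 and 5228 in Control and 6201 to 7276 in Prox1 OE (3 of 6 higher, but 3 lower and 2 higher with the total count as library size), macrophage markers at 17444 and 21138 and 25650 to 42196 (1 of 6 higher), and lymphocyte markers at 153 and 173 and 314 to 433 (3 of 6 tested higher, and 0 without Control tumour 2 or Prox1 OE tumour 2). Over all genes tested, 16.2% were called lower and 17.1% higher, and 1 of 6 macrophage markers was near the latter share. Macrophage markers called higher numbered 2 without Prox1 OE tumour 2. With the total count as library size, 6856 of 17145 genes were called lower and 1472 higher. No marker was at 0 in every library (0 genes).

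**Figure D5:**
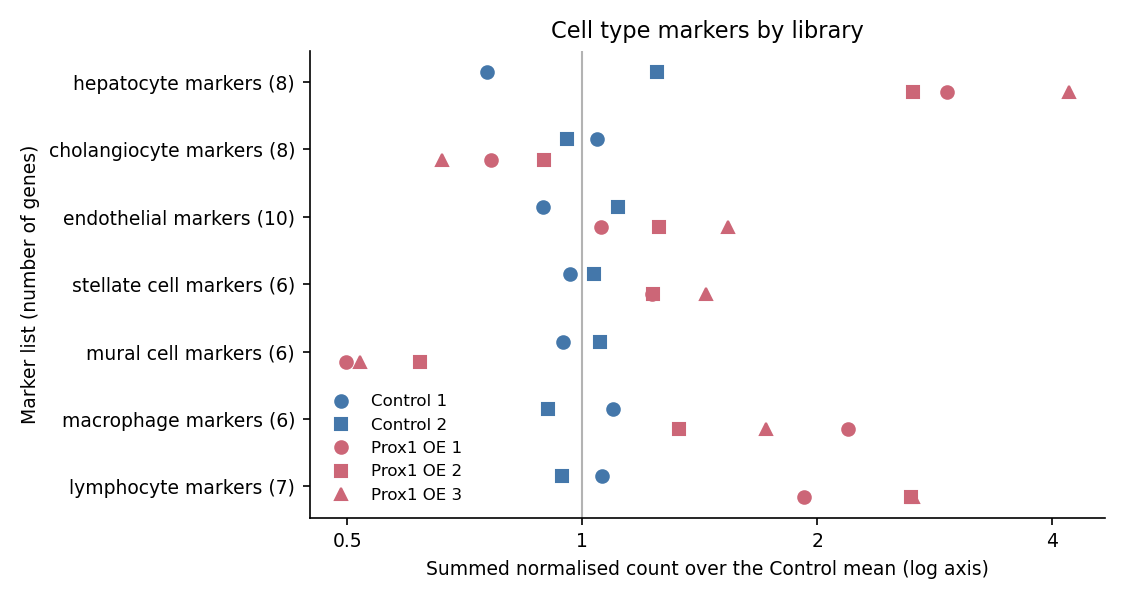
Summed normalised count of each cell type marker list divided by its Control mean (horizontal axis, log scale), blue for Control and red for Prox1 OE libraries. Mural and cholangiocyte sums of Prox1 OE lie left of Control, hepatocyte, stellate, macrophage and lymphocyte sums right of it, and endothelial sums overlap. Spp1, which was not called, held 93.9% to 97.4% of the cholangiocyte sum. Alb held 66.9% to 76.7% of the hepatocyte sum and Rgs5 53.5% to 64.7% of the mural sum.

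The genes nearest to each member were sought by the root-mean-square difference of log2 values, each centred on its mean over the 5 libraries, among protein-coding genes with a mean of at least 100 normalised counts. The 3 nearest lay between 0.0188 and 0.12 log2 units away. They were Etl4, Cd276 and Lrrc8b for Notch1, Gcn1l1, Tcaf1 and Pxn for Notch2, Tcf12, Kdm4c and Cbl for Notch3, and Arl5b, Ccnt1 and Rai2 for Notch4. For the ligands they were Mlph, Gm609 and Tnf (Jag1), Phf19, Ltb and Pstpip1 (Jag2), Tgfbrap1, Antxr2 and Klhl5 (Dll1), and Rapgef5, Prrg3 and Ccn4 (Dll4). Leaving out a library kept at most 2 of the 3, and in 40 such comparisons none kept all 3, so that likeness over 5 libraries depends on each of them. Among the 28 pairs of members, the most alike were Notch2 and Notch3 (0.14 log2 units) and then Notch4 and Dll4 (0.18).

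Overlapping genes could share reads with a member where strand was not used in counting, which the sources do not state. Those measured were low: the highest was Gm14207, antisense to Dll4, at a median of 3.79% of its normalised count, followed by the Notch3 antisense gene Gm17276 (1.38%) and the Notch1 antisense gene 0610009E02Rik (0.568%). The gene opposite Dll1, A930024N18Rik, was not analysed here.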

How the data were processed

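The authors mapped paired reads of 100 bases from a strand-preserving dUTP library to mm10 with STAR. The counting tool and annotation are not given in the sources used here. The deposited signal is a normalised count per gene and library, a read count divided by a DESeq2 size factor. Whole reads were recovered for 100% of values (within 0.01 of a read). 0 columns of per-sample values were left unused. A second deposited table holds the authors' own comparison (fold changes and p-values) and was not used.

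Groups followed the sample labels. Genes averaging at least 10 normalised counts were tested with limma 3.58.1 in R 4.3.3 (lmFit and eBayes with trend) on log2(normalised count + 1), without covariates, two-sided, with Benjamini-Hochberg adjustment over 17105 genes at 0.05. Fold changes are on that scale, which understates changes of low genes. On recovered reads, edgeR 4.0.16 (quasi-likelihood) called 5761 genes and DESeq2 1.42.0 called 6468. The scripts were tested on simulated data.

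No replicate pair came close to sampling noise (chi-square over its degrees of freedom 36.2 in Control, 73.5 to 115 in Prox1 OE). Gene models for lengths and positions were GENCODE vM21, matching 55137 of 55397 identifiers. Named were the 8 members, at most 3 genes per pathway list by absolute log2 fold change, plasmid genes, markers where a result turned on them, and the 3 genes nearest to each member; further members of these lists and the overlapping genes were named after their values were seen. The members and lists were chosen with earlier results of these data known. Alternatives covered scaling, pseudocount, filter, trend, tool, replicate block and each library left out.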

Additional observations from a re-analysis of the deposited data

How the results depend on the processing

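Notch1 and Jag1 were called lower in all 16 alternatives tried, with log2 fold changes of -1.63 to -1.06 and -2.12 to -1.53. With the total count as library size, Jag2 (-0.25), Dll1 (-0.10), Lfng (-0.070), Phf19 (-0.22), Ltb (-0.21), Pstpip1 (-0.26), Tgfbrap1 (-0.12), Antxr2 (-0.078) and Klhl5 (-0.048) turned to lower, Dll4 was called (-1.11), and 26 other pathway genes fell and 1 rose. Over all genes, 6856 of 17145 were then called lower and 1472 higher, and the median was -0.45. Relative to that median the log2 fold changes of Jag2, Dll1 and Dll4 were 0.20, 0.35 and -0.66. Notch3 lost its call with upper-quartile factors (-0.62, limma adjusted p = 0.053), with no filter (-0.69, 0.063) and with no mean-variance trend (-0.69, 0.053). With no trend 8 pathway genes fell, and 1929 of all 17105 genes. DESeq2 called Dll4 (-0.66). The cause of these changes was not tested.

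Leaving out each library gave log2 fold changes of -1.38 to -1.06 for Notch1, -0.79 to -0.63 for Notch2, -0.84 to -0.59 for Notch3, -0.69 to -0.44 for Notch4, -1.92 to -1.53 for Jag1, -0.049 to 0.41 for Jag2, 0.24 to 0.45 for Dll1 and -0.84 to -0.47 for Dll4. Phf19 (-0.019 to 0.46) and Ltb (-0.038 to 0.47), both near to Jag2 in pattern, reversed only without Control tumour 2. The members called lower numbered 2 to 5, the pathway genes 1 to 19 lower and 1 to 4 higher. Leaving out a Control leaves 1 library there, assumed to vary like Prox1 OE, and 1511 or 2499 genes called of 5702. The Prox1 OE minus Control difference of the log2 ratio ran, for Notch3 to Notch2, from -0.048 to 0.15, for Notch4 to Notch2 from -0.0023 to 0.30 and for Dll4 to Notch4 from -0.20 to 0.044.

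With the replicate block, which leaves out Prox1 OE tumour 3, 6 members were called lower and Dll4 gave -0.83 (adjusted p = 0.0059), with 5187 genes called. The replicate numbers are tied to nothing in the labels, and only 2 pairs exist, whose deviations correlated at 0.14 and 0.02. Of 720 other values of single genes under the alternatives, 621 kept direction and call, 80 lost the call, 10 gained it and 9 reversed. The order of levels per kb kept 16 of 16 places with total counts and 14 of 16 with the longest transcript. With the latter, Notch1 and Notch2 changed places in Prox1 OE. With 2 and 3 libraries, small changes of low genes such as Jag2 could not be resolved.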
